A study of Mus musculus with 12 samples.

Results

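The genes described here build ribosomes in the nucleolus. They are 37 genes chosen by name from the 26190 genes of a table of bulk RNA-seq on the whole mouse telencephalon, and all 37 were in the table and among the 14454 genes tested. By role they are 3 proteins of the box C/D and 4 of the box H/ACA small nucleolar ribonucleoproteins (snoRNPs), 4 factors of RNA polymerase I transcription, 6 nucleolar chaperones and scaffolds, 8 factors of small subunit and 10 of large subunit assembly, and the transcription factors Myc and Mycn. The telencephalon is the embryonic part of the forebrain from which the cortex and the basal ganglia arise. The samples were 3 female and 3 male wild-type C57BL/6J embryos at embryonic day 14.5 (E14.5) and 3 female and 3 male embryos at E11.5, 1 poly(A)-selected library each, with no treatment in any group. The sources differ on the litters of the E11.5 embryos. By the sample table, which is followed here, they came from 3 mothers with 1 female and 1 male each. At E14.5, replicates 1 and 2 of both sexes shared a mother and replicate 3 of both sexes came from another.

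As background, RNA polymerase I transcribes the ribosomal RNA genes into a long precursor. The snoRNPs guide its chemical modification, and assembly factors fold and cut it and load the ribosomal proteins onto it to give the small and the large ribosomal subunit. Growing and dividing cells, such as the neural stem cells that line the ventricles of the early telencephalon, need many new ribosomes, and Myc proteins are known activators of the genes for this machinery.

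The libraries held 17551763 to 28355361 counts in genes. Values are given as CPM, counts brought to a common library total and normalized by TMM, a scaling that assumes that most genes do not differ between libraries, or as FPKM, which divides by transcript length, where levels of different genes are compared. Each group had its own series of sequencing IDs, so group and series cannot be told apart. The change with age is also given within each sex, where the ages still differ in series. Replicate 3 of both E14.5 groups stood apart from replicates 1 and 2, with a chi-square of the counts over its degrees of freedom of 10.34 to 16.62, against 2.42 to 7.22 for the other pairs within a group. No pair of libraries agreed within sampling noise.

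Most of the 37 genes were lower at E14.5 than at E11.5, by a modest amount, and Myc was the exception. Calls needed an adjusted p under 0.05 in edgeR's quasi-likelihood test, with Benjamini-Hochberg adjustment over all 14454 genes, and an absolute log2 fold change above 0.5. By this rule 15 of the 37 genes fell and 1, Myc, rose, where 19.0% of all genes tested were called lower and 24.4% higher. At the adjusted p alone 34 genes were lower and 2 higher, against 41.6% and 40.1% of all genes tested. The median log2 fold change (E14.5 over E11.5) was -0.40 over the 37 genes and -0.01 over all genes tested. In 28 genes every E14.5 library lay below every E11.5 library and in 1 every E14.5 library lay above, against 27.5% and 28.0% of all genes tested. The summed level of the 37 genes was 3805 to 4532 CPM at E14.5 and 6289 to 6878 CPM at E11.5, so the ages did not overlap. Without the E14.5 embryos of the other mother, 12 genes were called lower (17.6% of all genes), since Ftsj3, Mybbp1a and Wdr75 no longer passed the fold minimum.

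**Figure D1:**
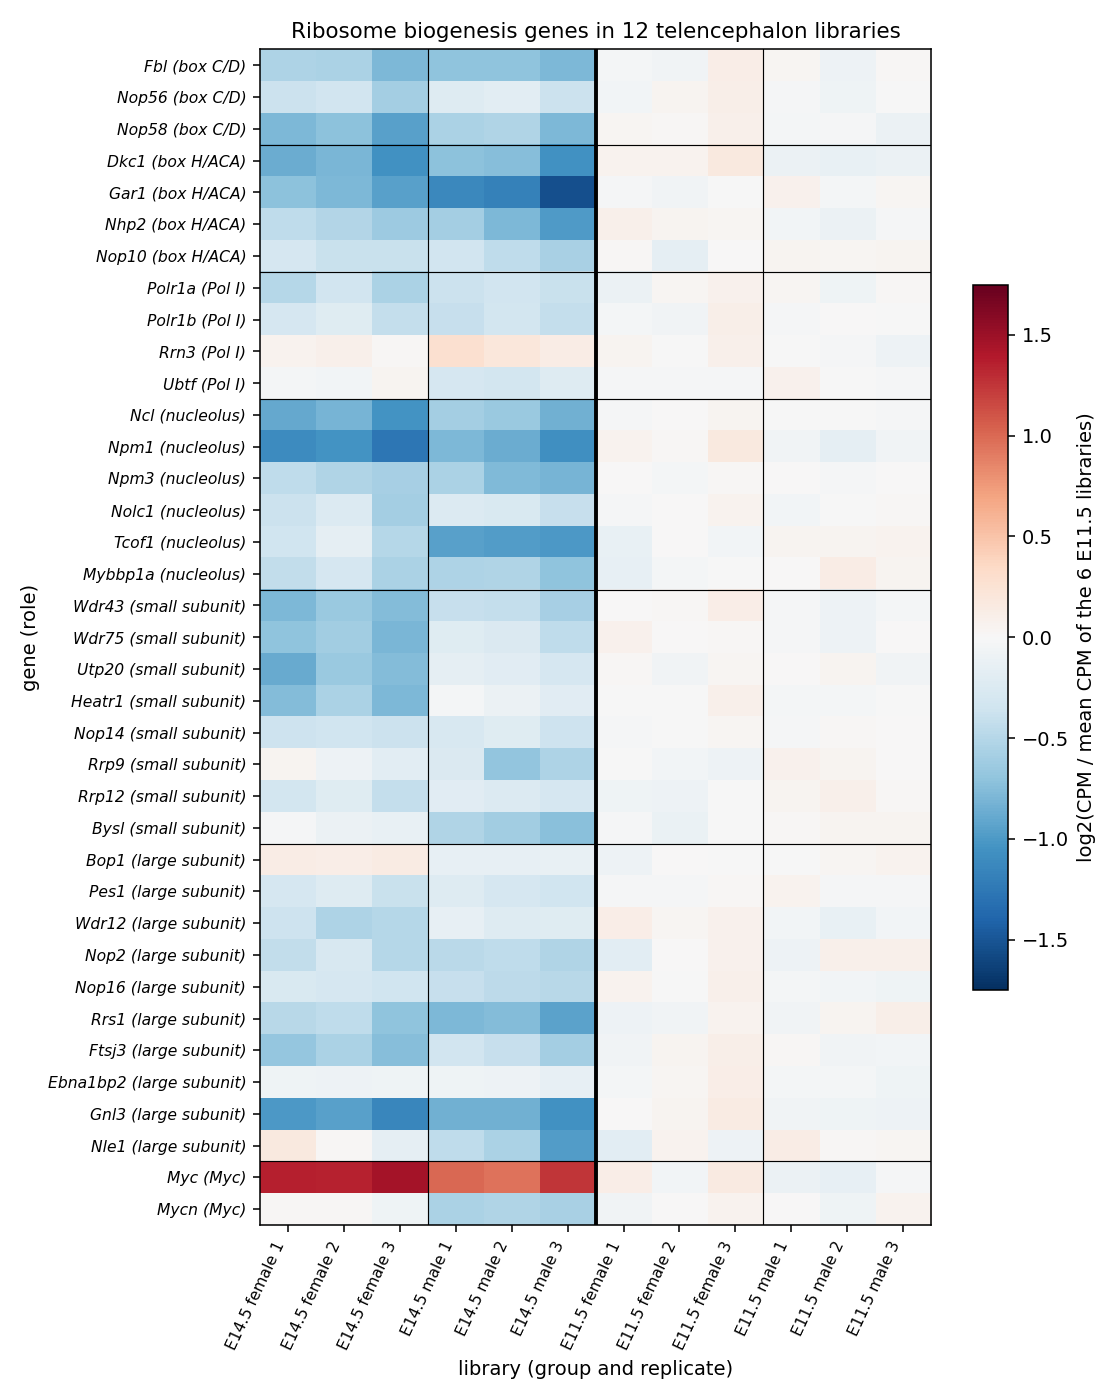
The heat map shows each of the 37 genes (rows, grouped by role) in each of the 12 libraries (columns) as log2 of its CPM over its mean CPM in the 6 E11.5 libraries, with blue below and red above that mean. The E14.5 libraries are blue for most genes, Myc is red in all 6 of them, and Tcof1, Bysl, Heatr1 and Mycn differ between the E14.5 females and males.

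Markers of other cells and states moved with the same comparison. Of the 10 proliferation markers tested, 8 were called lower at E14.5 and none higher, and their summed level was 2142 to 3419.5 CPM at E14.5 and 4248 to 4526 CPM at E11.5. Of the 10 neural stem cell markers 7 were called lower and 1, Slc1a3, higher (summed level 2049 to 2566 CPM at E14.5 and 4114 to 4380.5 CPM at E11.5), and all 11 neuronal markers were called higher (summed level 6606 to 8589 CPM at E14.5 and 2025 to 2458 CPM at E11.5). Of the erythroid markers 9 of 11 tested were lower and 1, Hbb-bt, higher (871 to 1261 CPM at E14.5 and 4636 to 8197 CPM at E11.5), all 6 mesenchyme markers were lower (493 to 682 CPM at E14.5 and 972 to 1233 CPM at E11.5), and all 4 choroid plexus markers tested were higher (218 to 652 CPM at E14.5 and 18.2 to 28.2 CPM at E11.5). Of 6 markers of intermediate progenitors 4 were called higher and 1, Neurog1, lower (652 to 762 CPM at E14.5 and 396 to 432 CPM at E11.5), of 7 of microglia and macrophages 3 higher and 1, Ptprc, lower (42.8 to 65.7 CPM at E14.5 and 34.6 to 37.6 CPM at E11.5), and of 6 of endothelial cells 1, Cldn5, higher (191 to 265 CPM at E14.5 and 240.0 to 275 CPM at E11.5). The 5 telencephalic markers were present in every library (632 to 923 CPM at E14.5 and 589 to 628 CPM at E11.5), with 2 called higher and 1, Emx2, lower, and no marker was at 0 in all libraries. In whole tissue, fewer cells of a type and less RNA per cell cannot be told apart, and the part of these shifts in the fall of the 37 genes was not tested.

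The 5 largest falls were those of Gar1, Npm1, Gnl3, Dkc1 and Ncl, with log2 fold changes of -1.04, -1.02, -0.97, -0.87 and -0.80, and they came from 3 role groups. All 3 box C/D proteins were lower at E14.5 at the adjusted p, against 41.6% of all genes tested. Of these, 2 were called, against 19.0% of all genes tested called lower. Nop58, a core protein of the box C/D particle that holds the guide RNA (GRCm38 chromosome 1, 59685006 to 59711510), had 133, 139 and 118 CPM in E14.5 females and 155, 159 and 133 in E14.5 males, against 235, 232 and 243 in E11.5 females and 223, 226 and 213 in E11.5 males. Every E14.5 library was below every E11.5 library (log2 fold change -0.72, SE 0.05, edgeR adjusted p = 2.86e-09). Fbl (fibrillarin, chromosome 7, 28169748 to 28179269) is the enzyme of the particle, which methylates the ribose of ribosomal RNA. It had 86.9, 86.3 and 73.5 CPM in E14.5 females and 78.1, 77.9 and 73.5 in E14.5 males, against 124, 122 and 138 in E11.5 females and 129, 119.5 and 129 in E11.5 males, with no overlap of the ages (log2 fold change -0.68, SE 0.05, edgeR adjusted p = 5.08e-09). Nop56, the partner of Nop58, had 131, 135 and 113 CPM in E14.5 females and 145, 150.2 and 132 in E14.5 males, against 165, 176 and 182 in E11.5 females and 168, 162 and 169.9 in E11.5 males. Its ages did not overlap either, but its fold change stayed under the minimum (log2 fold change -0.35, SE 0.05, edgeR adjusted p = 7.44e-06), and it was -0.17 ± 0.04 SE with a correction for GC content and transcript length.

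The box H/ACA particle converts uridines of ribosomal RNA to pseudouridine. All 4 of its core proteins were lower, 3 of them called, against 19.0% of all genes tested called lower. Gar1 (chromosome 3, 129824912 to 129831396), which helps release the modified RNA, had 28.3, 26.9 and 24.0 CPM in E14.5 females and 21.2, 20.5 and 15.9 in E14.5 males, against 45.6, 44.6 and 46.2 in E11.5 females and 49.1, 45.3 and 47.6 in E11.5 males. The E14.5 males were lowest, and the fall was among the 2 that passed a log2 fold change of 1 (log2 fold change -1.04, SE 0.06, edgeR adjusted p = 9.36e-10). Dkc1 (dyskerin, chromosome X, 75095854 to 75109776) is the pseudouridine synthase itself. It had 80.1, 84.3 and 70.1 CPM in E14.5 females and 89.1, 87.9 and 70.5 in E14.5 males, against 153, 153 and 165 in E11.5 females and 137, 134 and 137 in E11.5 males, again with no overlap of the ages (log2 fold change -0.87, SE 0.06, edgeR adjusted p = 6.26e-09). Nhp2, which binds the guide RNA, fell by a similar amount (log2 fold change -0.65, SE 0.06, edgeR adjusted p = 5.53e-08), and its mean was 25.0 ± 3.30 CPM at E14.5 and 39.2 ± 1.82 CPM at E11.5 (SD, n = 6 each). Nop10, the smallest core protein, had 35.3, 33.2 and 33.1 CPM in E14.5 females and 34.3, 31.8 and 29.2 in E14.5 males, against 44.0, 38.9 and 43.5 in E11.5 females and 44.7, 44.2 and 44.8 in E11.5 males. Its ages did not overlap, but its change was under the fold minimum (log2 fold change -0.40, SE 0.05, edgeR adjusted p = 1.30e-06). With the correction it was -0.11 ± 0.03 SE.

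Of the 6 nucleolar chaperones and scaffolds 5 were called lower (against 19.0% of all genes tested). In all 6 every E14.5 library lay below every E11.5 library (against 27.5%). Npm1 (nucleophosmin, chromosome 11, 33152498 to 33163206), a histone and ribosome chaperone that shuttles between nucleolus and cytoplasm, was the most highly expressed of the 37 genes per length, with 401 ± 46.3 FPKM at E14.5 and 839 ± 53.8 FPKM at E11.5 (SD, n = 6 each). It had 765, 797 and 679 CPM in E14.5 females and 950.3, 894 and 779 in E14.5 males, against 1713, 1668 and 1838 in E11.5 females and 1566, 1476 and 1571 in E11.5 males. Every E14.5 library lay far below the lowest E11.5 library (log2 fold change -1.02, SE 0.05, edgeR adjusted p = 2.07e-10). Ncl (nucleolin, chromosome 1, 86344719 to 86359455), which binds the precursor RNA, had 819, 867 and 739 CPM in E14.5 females and 1003, 968 and 849 in E14.5 males, against 1495, 1533 and 1571 in E11.5 females and 1511, 1516 and 1501 in E11.5 males. All 6 E14.5 libraries were lower (log2 fold change -0.80, SE 0.05, edgeR adjusted p = 6.57e-10). Nolc1, a scaffold for snoRNPs, had 125, 137 and 107 CPM in E14.5 females and 138, 134 and 123 in E14.5 males, against 159, 163 and 169 in E11.5 females and 157, 161 and 164 in E11.5 males, and did not reach the fold minimum (log2 fold change -0.35, SE 0.05, edgeR adjusted p = 1.45e-05). Npm3, a relative of Npm1, fell (log2 fold change -0.61, SE 0.05, edgeR adjusted p = 8.94e-09), as did Tcof1, the treacle protein that links RNA polymerase I to the nucleolus (log2 fold change -0.65, SE 0.05, edgeR adjusted p = 9.69e-09), and Mybbp1a, a nucleolar Myb-binding protein (log2 fold change -0.50, SE 0.05, edgeR adjusted p = 1.48e-07). The call of Mybbp1a sits at the fold minimum and was lost without E14.5 female replicate 3, E14.5 male replicate 3, E11.5 female replicate 2 or 3, or E11.5 male replicate 2 (log2 fold change -0.50 to -0.47). With all libraries it was also lost with scaling by DESeq2 size factors or library totals alone, a count minimum of 50, or the DESeq2 Wald test. Npm3 was not called with a correction for GC content and transcript length (-0.41 ± 0.03 SE). Npm1 has near-identical processed copies elsewhere in the mouse genome, and how reads that match several places were shared is not given in the sources used here, so its level is uncertain to that extent.

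**Figure D2:**
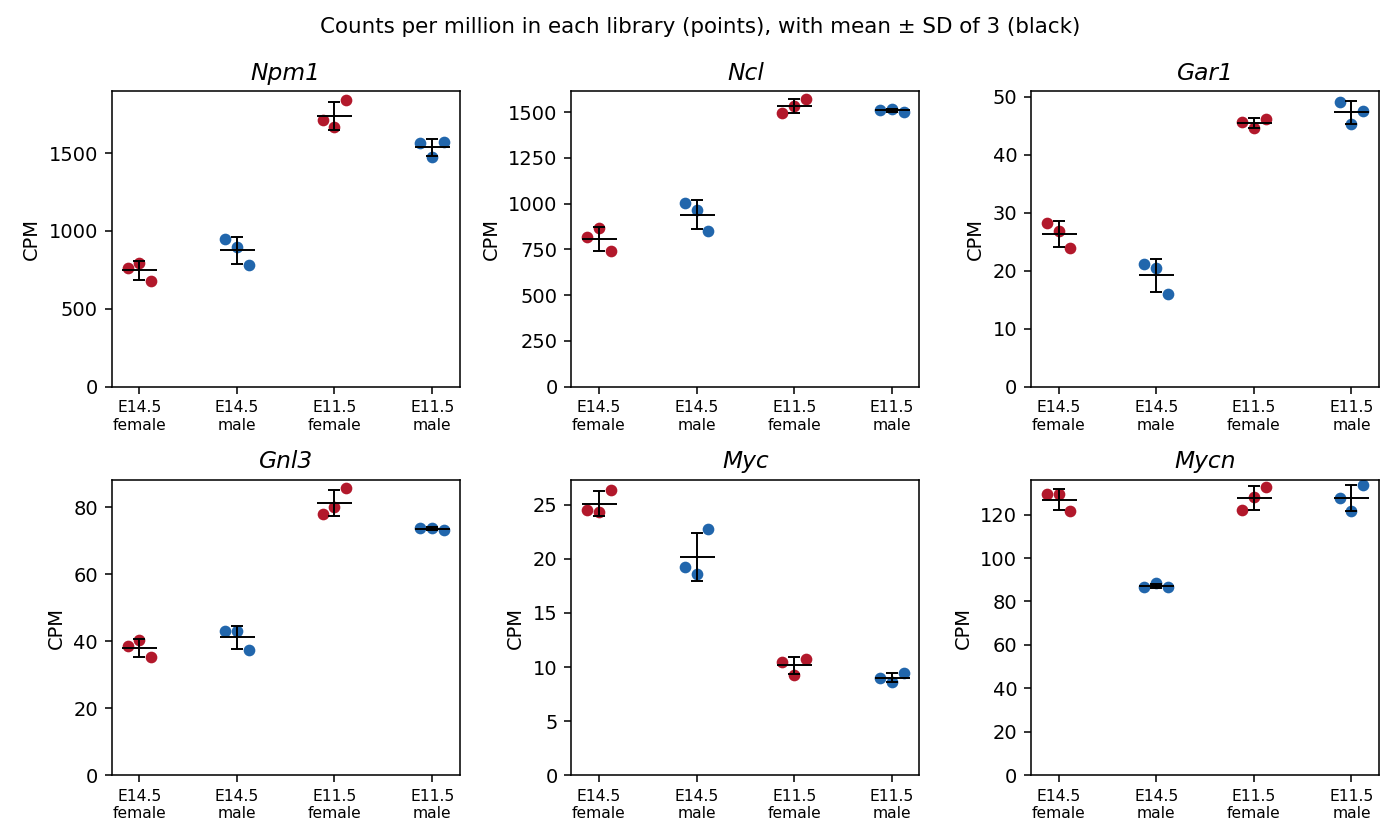
Each panel shows 1 gene, with its CPM in each of the 12 libraries as points (red for females, blue for males) and the mean ± SD of the 3 libraries of a group in black. Npm1, Ncl, Gar1 and Gnl3 lie lower in both E14.5 groups, Myc lies higher in both, and Mycn lies lower in the E14.5 males only.

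Of the 4 factors of RNA polymerase I transcription none was called by edgeR in either direction, against 19.0% lower and 24.4% higher of all genes tested. At the adjusted p alone 3 were lower and 1 higher, against 41.6% and 40.1% of all genes tested. Polr1a, the largest subunit of the enzyme, had 63.3, 70.8 and 60.7 CPM in E14.5 females and 68.8, 70.9 and 68.6 in E14.5 males, against 83.4, 92.1 and 94.5 in E11.5 females and 91.4, 84.9 and 91.1 in E11.5 males. Its ages did not overlap (log2 fold change -0.41, SE 0.04, edgeR adjusted p = 5.17e-07). Polr1b, the other large subunit, had 42.7, 45.4 and 39.2 CPM in E14.5 females and 39.6, 42.2 and 39.5 in E14.5 males, against 51.4, 50.5 and 56.3 in E11.5 females and 51.7, 52.8 and 52.4 in E11.5 males, also without overlap and under the fold minimum (log2 fold change -0.34, SE 0.04, edgeR adjusted p = 3.83e-06). With a correction for GC content and transcript length, Polr1a passed the minimum (log2 fold change -0.55 ± 0.04 SE, edgeR adjusted p = 2.32e-08). Rrn3 (TIF-IA), which brings the enzyme to the promoter and is a known point of control by growth signals, was 1 of the 2 genes higher at the adjusted p. It had 132, 135 and 128 CPM in E14.5 females and 153, 144 and 138 in E14.5 males, against 130.0, 125 and 134 in E11.5 females and 126, 124 and 118 in E11.5 males. The E14.5 males were high and the E14.5 females lay within or next to the E11.5 range (log2 fold change 0.13, SE 0.03, edgeR adjusted p = 0.00268). Ubtf, which keeps ribosomal RNA genes in an open state, had 204, 203 and 216 CPM in E14.5 females and 171, 167 and 179.7 in E14.5 males, against 207, 207 and 206 in E11.5 females and 222, 209.7 and 208 in E11.5 males. Here the E14.5 males were low and the E14.5 females lay within or next to the E11.5 range (log2 fold change -0.15, SE 0.03, edgeR adjusted p = 5.53e-04). With the correction the fold change of Ubtf was -0.34 ± 0.03 SE.

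All 8 factors of small subunit assembly were lower at the adjusted p (against 41.6% of all genes tested), with a median log2 fold change of -0.38. Of these, 2 were called (25%, against 19.0% of all genes tested called lower). Wdr43 (chromosome 17, 71616215 to 71659031), of the complex that binds the start of the precursor, had 75.8, 83.8 and 77.8 CPM in E14.5 females and 99.1, 98.1 and 87.4 in E14.5 males, against 132, 133 and 142 in E11.5 females and 129, 123 and 129 in E11.5 males. The E14.5 females were lowest, and the ages did not overlap (log2 fold change -0.60, SE 0.04, edgeR adjusted p = 2.79e-09). Wdr75, of the same complex, fell by an amount at the fold minimum (log2 fold change -0.50, SE 0.05, edgeR adjusted p = 8.08e-08). Its mean was 58.2 ± 9.77 CPM at E14.5 and 81.6 ± 3.06 CPM at E11.5 (SD, n = 6 each). This call was lost without E14.5 female replicate 3, E14.5 male replicate 3, E11.5 female replicate 1, or E11.5 male replicate 1 or 3 (log2 fold change -0.50 to -0.47), and with the correction for GC content and length (-0.40 ± 0.04 SE). Like that of Mybbp1a, it was also lost with DESeq2 size factors, library totals alone, a count minimum of 50, or the DESeq2 Wald test.

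Utp20 and Heatr1, very large proteins of the early small subunit precursor, had a clear split at E14.5. Utp20 had 51.0, 59.7 and 55.4 CPM in E14.5 females and 84.3, 81.6 and 76.5 in E14.5 males, against 94.8, 89.8 and 96.4 in E11.5 females and 94.7, 97.1 and 90.2 in E11.5 males. The E14.5 females were well below the E14.5 males, and both were below E11.5 (log2 fold change -0.49, SE 0.04, edgeR adjusted p = 5.37e-08). Utp20 was past the fold minimum without E14.5 female replicate 2, E14.5 male replicate 1, E11.5 female replicate 2 or E11.5 male replicate 3 (log2 fold change -0.52 to -0.50), and with the correction for GC content and length (-0.69 ± 0.05 SE). Heatr1 had 60.2, 69.4 and 58.8 CPM in E14.5 females and 99.1, 94.4 and 88.4 in E14.5 males, against 101, 101 and 108 in E11.5 females and 98.9, 99.4 and 101 in E11.5 males. Its E14.5 females were far lower, and 1 of its E14.5 males lay within the E11.5 range (log2 fold change -0.40, SE 0.04, edgeR adjusted p = 7.14e-07). Heatr1 too passed the minimum with the correction (-0.53 ± 0.05 SE). Nop14, also of the early precursor, had 48.2, 48.9 and 48.0 CPM in E14.5 females and 51.1, 53.3 and 48.3 in E14.5 males, against 61.1, 61.5 and 63.7 in E11.5 females and 61.1, 62.7 and 62.1 in E11.5 males, with no such split (log2 fold change -0.32, SE 0.03, edgeR adjusted p = 4.34e-07).

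Rrp9, a protein of the U3 snoRNP that directs the first cuts, had 30.9, 28.0 and 26.1 CPM in E14.5 females and 25.0, 18.4 and 20.5 in E14.5 males, against 29.7, 28.9 and 27.9 in E11.5 females and 31.3, 30.7 and 29.9 in E11.5 males. The E14.5 females lay near the E11.5 range and the E14.5 males below it (log2 fold change -0.28, SE 0.07, edgeR adjusted p = 0.00119). Rrp12, a factor for export of the precursor, had 33.4, 36.4 and 31.6 CPM in E14.5 females and 36.7, 35.5 and 34.2 in E14.5 males, against 40.0, 39.6 and 41.7 in E11.5 females and 43.5, 44.7 and 42.4 in E11.5 males, a small difference without overlap (log2 fold change -0.28, SE 0.04, edgeR adjusted p = 2.22e-05). Bysl (bystin), needed late in small subunit maturation, had 56.4, 53.6 and 52.6 CPM in E14.5 females and 39.7, 37.8 and 34.5 in E14.5 males, against 56.7, 52.9 and 57.2 in E11.5 females and 58.4, 59.2 and 59.5 in E11.5 males. The E14.5 males were low and the E14.5 females overlapped E11.5 (log2 fold change -0.35, SE 0.04, edgeR adjusted p = 1.19e-06).

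Of the 10 factors of large subunit assembly 3 were called lower (30%, against 19.0% of all genes tested). At the adjusted p, where 41.6% of all genes tested were lower, 6 more were lower and 1, Bop1, was not. Gnl3 (nucleostemin, chromosome 14, 31012433 to 31019131), a nucleolar GTPase first known from stem cells, had 38.5, 40.2 and 35.1 CPM in E14.5 females and 43.1, 43.1 and 37.2 in E14.5 males, against 77.8, 80.1 and 85.6 in E11.5 females and 73.8, 73.7 and 73.0 in E11.5 males. Its adjusted p was the smallest of the 37 genes (log2 fold change -0.97, SE 0.05, edgeR adjusted p = 9.70e-11). Rrs1 (chromosome 1, 9545408 to 9547455), which helps bring the 5S RNA particle into the large subunit, had 44.1, 45.6 and 38.0 CPM in E14.5 females and 35.9, 36.3 and 32.4 in E14.5 males, against 57.9, 59.4 and 64.3 in E11.5 females and 59.4, 63.6 and 66.1 in E11.5 males, without overlap (log2 fold change -0.68, SE 0.05, edgeR adjusted p = 1.39e-08). Ftsj3, a methyltransferase relative of yeast Spb1, was called too (log2 fold change -0.55, SE 0.05, edgeR adjusted p = 5.51e-08).

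Bop1, Pes1 and Wdr12 form 1 complex, the PeBoW complex, and none of the 3 was called. Bop1 had 83.9, 83.4 and 85.3 CPM in E14.5 females and 69.4, 69.3 and 70.5 in E14.5 males, against 72.0, 77.5 and 76.8 in E11.5 females and 76.5, 78.5 and 80.2 in E11.5 males. The E14.5 females were above the E14.5 males and the mean of the sexes showed no detectable change (log2 fold change -0.01, SE 0.03, edgeR adjusted p = 0.884). Pes1 had 104, 109 and 96.9 CPM in E14.5 females and 109, 103 and 99.5 in E14.5 males, against 125, 125 and 129 in E11.5 females and 133, 126 and 125 in E11.5 males, lower in every E14.5 library (log2 fold change -0.30, SE 0.04, edgeR adjusted p = 2.36e-06). Wdr12 had 33.9, 29.98 and 30.9 CPM in E14.5 females and 39.5, 37.2 and 37.4 in E14.5 males, against 47.0, 44.4 and 46.0 in E11.5 females and 42.1, 39.6 and 41.9 in E11.5 males, again lower in every E14.5 library (log2 fold change -0.33, SE 0.04, edgeR adjusted p = 3.28e-06). Whether Bop1 differed from its partners was not tested.

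Nop2, a methyltransferase of the large subunit RNA, had 49.7, 55.5 and 47.6 CPM in E14.5 females and 48.4, 49.3 and 46.4 in E14.5 males, against 59.1, 67.2 and 70.6 in E11.5 females and 62.9, 71.7 and 71.6 in E11.5 males, with ages that did not overlap (log2 fold change -0.44, SE 0.05, edgeR adjusted p = 2.26e-06). Nop16, a large subunit precursor protein, had 37.1, 36.5 and 35.2 CPM in E14.5 females and 33.8, 32.5 and 32.0 in E14.5 males, against 46.9, 44.6 and 47.8 in E11.5 females and 43.9, 43.2 and 42.4 in E11.5 males, likewise (log2 fold change -0.38, SE 0.04, edgeR adjusted p = 1.52e-07). With the correction the fold change of Nop16 was -0.23 ± 0.03 SE. Ebna1bp2, a partner of Rrs1 in yeast, had 79.9, 79.4 and 80.0 CPM in E14.5 females and 80.1, 79.3 and 76.1 in E14.5 males, against 82.5, 86.6 and 91.7 in E11.5 females and 82.9, 82.9 and 80.4 in E11.5 males. Its ages did not overlap, but the nearest libraries were at 80.1 CPM at E14.5 and 80.4 CPM at E11.5 (log2 fold change -0.09, SE 0.03, edgeR adjusted p = 0.0161). It no longer passed the adjusted p with the correction (-0.05 ± 0.03 SE, edgeR adjusted p = 0.185). Nle1, which works at a late step of large subunit maturation, had 17.7, 15.9 and 14.1 CPM in E14.5 females and 11.5, 10.7 and 7.98 in E14.5 males, against 13.8, 16.4 and 14.7 in E11.5 females and 17.2, 15.9 and 16.1 in E11.5 males. Its E14.5 males lay below the E11.5 range and its E14.5 females did not (log2 fold change -0.31, SE 0.08, edgeR adjusted p = 0.00354).

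**Figure D3:**
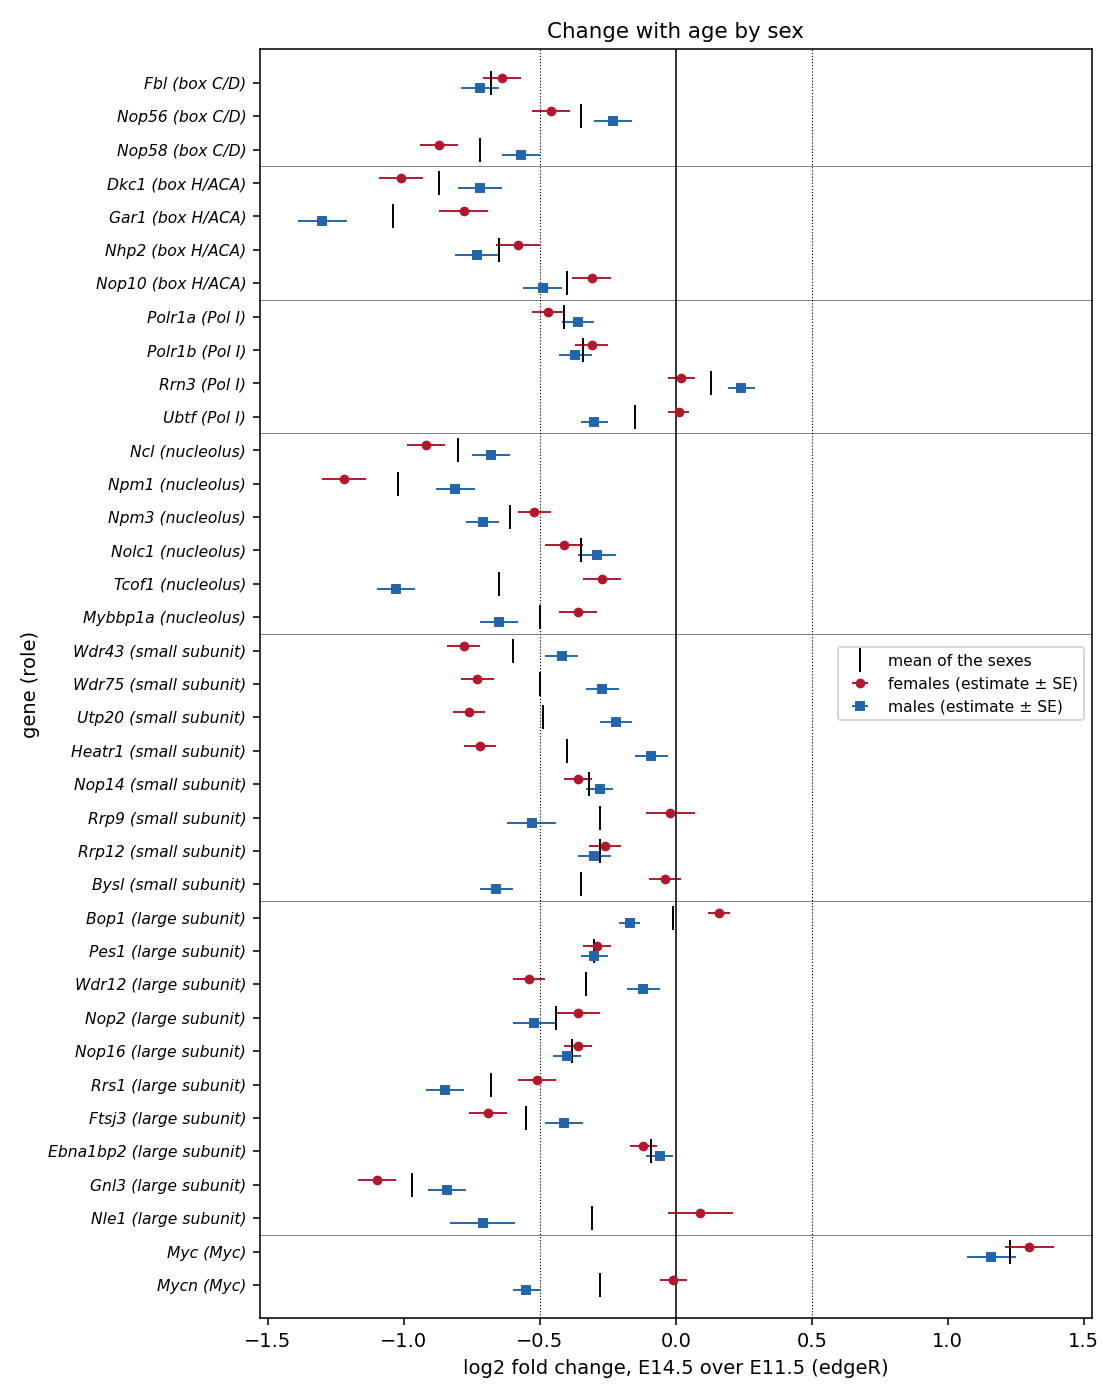
The log2 fold change of E14.5 over E11.5 is shown for each of the 37 genes in females (red circles) and males (blue squares), each estimate ± SE, with the mean of the sexes as a black bar and the fold minimum of 0.5 as dotted lines. Most points lie left of 0 in both sexes, Myc lies at 1.30 in females and 1.16 in males, and the sexes part for genes such as Tcof1, Heatr1, Bysl and Nle1.

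Of the pair of Myc factors, Myc was called higher and Mycn was not called. Myc (chromosome 15, 61985341 to 61990361) had 24.6, 24.4 and 26.4 CPM in E14.5 females and 19.2, 18.6 and 22.7 in E14.5 males, against 10.4, 9.30 and 10.7 in E11.5 females and 8.95, 8.66 and 9.45 in E11.5 males. All 6 E14.5 libraries were above all 6 E11.5 libraries, and Myc rose 2.35-fold (log2 fold change 1.23, SE 0.06, edgeR adjusted p = 2.01e-10). The rise was called in females (1.30 ± 0.09 SE, adjusted p = 8.58e-09, edgeR) and in males (1.16 ± 0.09 SE, adjusted p = 3.86e-08, edgeR). Per length Myc was nevertheless a low transcript, at 8.03 ± 1.18 FPKM at E14.5 and 3.52 ± 0.257 FPKM at E11.5 (SD, n = 6 each). Mycn (chromosome 12, 12936093 to 12941836), the family member known for its role in neural progenitors, was higher than Myc in both ages, at 35.1 ± 7.76 FPKM at E14.5 and 43.3 ± 1.53 FPKM at E11.5 (SD, n = 6 each). It had 129.5, 129.7 and 122 CPM in E14.5 females and 86.8, 88.4 and 86.4 in E14.5 males, against 122, 128 and 133 in E11.5 females and 128, 122 and 134 in E11.5 males. The E14.5 females lay within or next to the E11.5 range and the E14.5 males lay well below it. Over both sexes Mycn was lower at the adjusted p only (log2 fold change -0.28, SE 0.03, edgeR adjusted p = 2.51e-06). Within females the log2 fold change was -0.01 ± 0.05 SE (edgeR adjusted p = 0.896), and within males Mycn was called lower (-0.55 ± 0.05 SE, edgeR adjusted p = 1.39e-07). With the correction for GC content and length Mycn was not called in males (-0.41 ± 0.04 SE), and females were at -0.10 ± 0.04 SE.

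Myc with its partner Max binds the E-box CACGTG, which reads the same on both strands. RefSeq promoters (GRCm38.p6, 250 bases before to 50 after each start) were given for 30 of the 37 genes, and 7 of these held CACGTG (23.3%), against 11.4% of the 11260 tested genes with such a promoter. The windows that hold it are printed to show where the letters lie, each 5′ to 3′ on the gene's strand with the E-box in capitals and up to 12 bases on either side.
Rrn3 (first site): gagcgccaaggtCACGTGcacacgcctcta
Rrn3 (second site): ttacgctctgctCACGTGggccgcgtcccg
Mybbp1a (1 site): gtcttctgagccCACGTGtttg
Wdr43 (1 site): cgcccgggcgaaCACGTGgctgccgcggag
Utp20 (1 site): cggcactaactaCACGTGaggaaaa
Pes1 (1 site): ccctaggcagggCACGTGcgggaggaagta
Nop2 (1 site): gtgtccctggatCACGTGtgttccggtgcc
Nle1 (1 site): tcggttctcctcCACGTGgggacgcaggat

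The E-box began -60 bases from the start in Nop2 (window at chr6:125131811-125131840, + strand), and at -215 and -48 in Rrn3 (chr16:13780472-13780501 and chr16:13780639-13780668, + strand). In the other 5 genes it lay after the start, counted from 1 at the first transcribed base: at 3 in Pes1 (chr11:3963965-3963994, + strand), 18 in Wdr43 (chr17:71616220-71616249, + strand), 24 in Nle1 (chr11:82908355-82908384, - strand), 38 in Utp20 (chr10:88826765-88826789, - strand) and 41 in Mybbp1a (chr11:72441355-72441376, + strand). The median log2 fold change with age was -0.44 for the 7 genes with the E-box and -0.40 for the 23 without it. Called lower were 2 of 7 and 9 of 23, against 19.0% of all genes tested, and the difference was not tested. The call of Mybbp1a among the 2 and that of Wdr75 among the 9 sit at the fold minimum. The looser form CANNTG was in 21 of the 30 promoters (70.0%) and in 67.1% of those of tested genes. A match of letters says nothing of binding, and no match says nothing of the factor.

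The other genes of the pathway, listed by role and not by how they moved, were lower in most cases at the adjusted p, but were called lower about as often as all genes tested. Of 114 further genes of small and large subunit assembly, RNA polymerase I transcription and snoRNP assembly, 21 were called lower (18.4%, against 19.0% of all genes tested) and 1 higher, with a median log2 fold change of -0.31. At the adjusted p alone 94 were lower, 8 higher and 12 neither, where 41.6% of all genes tested were lower and 40.1% higher. With the correction for GC content and length, 13 were called lower (11.4%, against 18.5% of all genes tested). Among 47 other small subunit factors 11 were called lower (23.4%) and none higher. Pno1, a late small subunit factor, averaged 30.4 ± 2.36 CPM at E14.5 and 61.7 ± 3.52 CPM at E11.5 (log2 fold change -1.02, SE 0.06, edgeR adjusted p = 3.60e-10). Ltv1, which leaves the nucleus with the small subunit precursor, averaged 37.3 ± 3.40 CPM at E14.5 and 64.7 ± 3.13 CPM at E11.5 (log2 fold change -0.80, SE 0.05, edgeR adjusted p = 3.08e-09). Utp3, of the early small subunit precursor, averaged 60.00 ± 2.86 CPM at E14.5 and 87.2 ± 1.20 CPM at E11.5 (log2 fold change -0.54, SE 0.03, edgeR adjusted p = 1.11e-09), and was no longer called with the correction (-0.38). All SDs in this and the next paragraph are over 6 libraries.

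Among 46 other large subunit factors 8 were called lower (17.4%, against 19.0% of all genes tested) and none higher. Rrp15, of the large subunit precursor, averaged 19.7 ± 1.24 CPM at E14.5 and 36.5 ± 1.49 CPM at E11.5 (log2 fold change -0.89, SE 0.05, edgeR adjusted p = 3.51e-10). Rrp1b, a nucleolar partner of protein phosphatase 1, averaged 37.7 ± 2.99 CPM at E14.5 and 63.7 ± 3.43 CPM at E11.5 (log2 fold change -0.76, SE 0.05, edgeR adjusted p = 1.71e-09). Noc2l, of the early large subunit precursor, averaged 103 ± 6.22 CPM at E14.5 and 152 ± 11.8 CPM at E11.5 (log2 fold change -0.56, SE 0.04, edgeR adjusted p = 4.48e-09). Of 11 other RNA polymerase I genes 1 was called, lower: Polr1c, a subunit shared with RNA polymerase III, averaged 50.3 ± 4.88 CPM at E14.5 and 73.0 ± 2.45 CPM at E11.5 (log2 fold change -0.54, SE 0.04, edgeR adjusted p = 4.74e-09). With the correction it was at -0.41 and none of the 11 was called. Taf1d, of the promoter factor SL1, and Polr1d, also shared with RNA polymerase III, had changes under the fold minimum (-0.49 ± 0.05 and -0.36 ± 0.04, log2 ± SE).

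Of 10 snoRNP assembly factors and cofactors 1 was called higher and 1 lower (10% each, against 24.4% and 19.0% of all genes tested). Fbll1, the gene of this list called higher and a paralog of fibrillarin known from neurons, had 12.2, 9.77 and 13.3 CPM in E14.5 females and 10.2, 8.18 and 8.67 in E14.5 males, against 1.66, 1.13 and 1.14 in E11.5 females and 2.51, 2.47 and 2.02 in E11.5 males. The ages did not overlap (log2 fold change 2.55, SE 0.12, edgeR adjusted p = 7.99e-11), while Fbl itself fell. Naf1, which assembles the box H/ACA particle, averaged 20.04 ± 1.49 CPM at E14.5 and 36.8 ± 3.27 CPM at E11.5 (log2 fold change -0.88, SE 0.06, edgeR adjusted p = 2.42e-09). Nufip1, an assembly factor of the box C/D particle, had a change under the minimum (-0.46 ± 0.04, log2 ± SE). The other genes of this list were not called.

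The RNA exosome trims the 3′ ends of ribosomal precursors and degrades the pieces cut out. It had 5 of 13 genes called lower (38.5%, against 19.0% of all genes tested) and none higher (median log2 fold change -0.37). Exosc8, of its ring, averaged 26.9 ± 1.79 CPM at E14.5 and 47.4 ± 3.95 CPM at E11.5 (log2 fold change -0.81, SE 0.04, edgeR adjusted p = 2.79e-10). Exosc7, also of the ring, averaged 23.4 ± 2.76 CPM at E14.5 and 39.2 ± 1.46 CPM at E11.5 (log2 fold change -0.75, SE 0.04, edgeR adjusted p = 8.57e-10). Exosc2, of its cap, averaged 36.0 ± 2.43 CPM at E14.5 and 59.9 ± 1.88 CPM at E11.5 (log2 fold change -0.73, SE 0.05, edgeR adjusted p = 1.12e-09). Host genes that carry snoRNAs in their introns were mixed. Of 16 tested 3 were called lower (18.8%, against 19.0% of all genes tested) and none higher (median log2 fold change -0.05). Among the 3 were Snhg1 (log2 fold change -0.59, SE 0.05, edgeR adjusted p = 1.94e-08) and Snhg3 (log2 fold change -0.91, SE 0.11, edgeR adjusted p = 3.10e-06). Snhg12 was higher at the adjusted p only (log2 fold change 0.48, SE 0.08, edgeR adjusted p = 3.40e-05). With the correction 1 host gene, Snhg3, was called lower and 2, Snhg12 and Snhg10, higher, the median was 0.15, Snhg1 was no longer called (-0.24) and Snhg12 was called (0.78).

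In the Myc network, 2 of 10 genes were called higher (20%, against 24.4% of all genes tested) and none lower. Both encode proteins that compete with Myc for Max: Mxd1 averaged 41.9 ± 4.25 CPM at E14.5 and 28.4 ± 0.597 CPM at E11.5 (log2 fold change 0.56, SE 0.04, edgeR adjusted p = 5.21e-09), and Mxd4 averaged 29.6 ± 2.71 CPM at E14.5 and 17.1 ± 2.13 CPM at E11.5 (log2 fold change 0.80, SE 0.06, edgeR adjusted p = 1.29e-08). Mxi1, of the same family, was under the fold minimum (log2 fold change 0.47, SE 0.04, edgeR adjusted p = 2.35e-08). With the correction Mxd1 was at 0.48 and Mxd4 alone was called. Of the genes for ribosomal proteins, taken by symbol, 27 of 82 tested were called lower (32.9%, against 19.0% of all genes tested) and none higher, with a summed level of 25369 to 31306 CPM at E14.5 and 37054 to 39794 CPM at E11.5 and a median log2 fold change of -0.43. With the correction for GC content and length 6 were called lower (7.32%, against 18.5% of all genes tested).

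**Figure D4:**
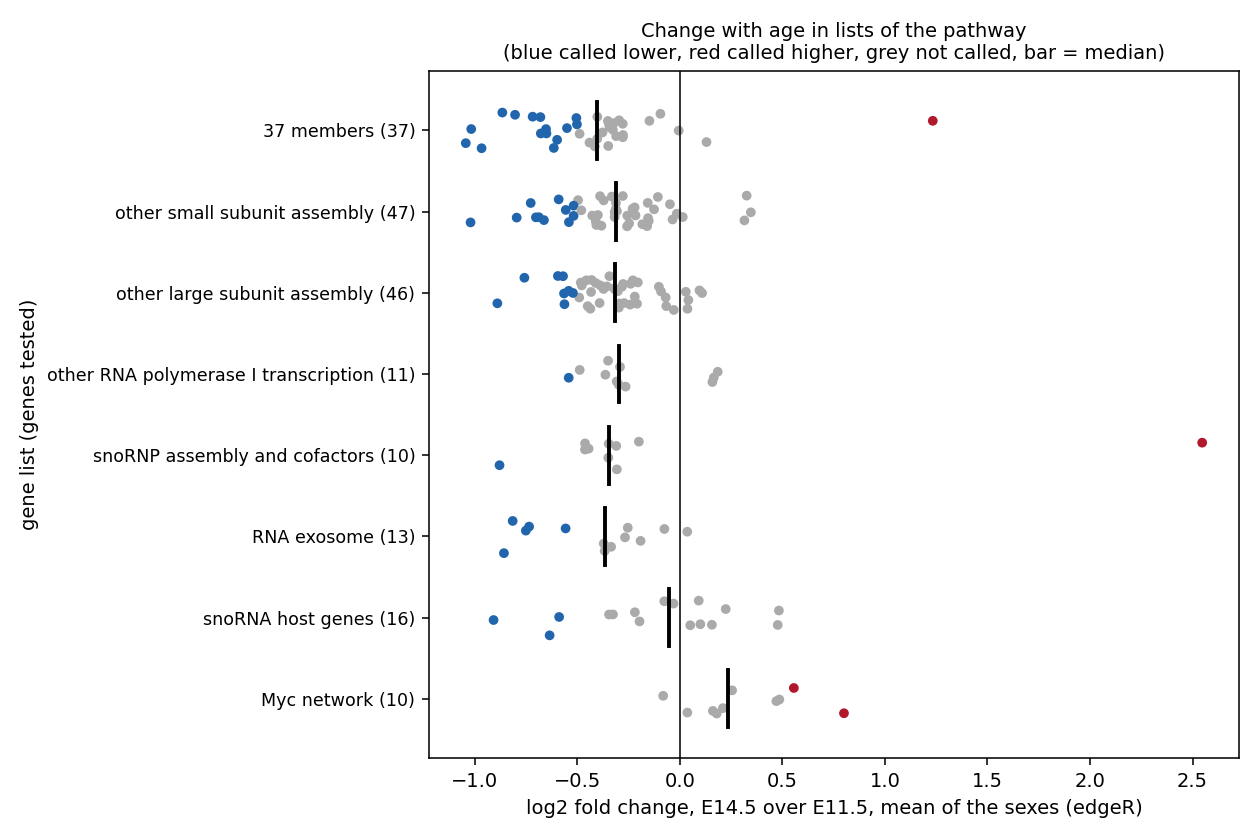
Each point is 1 gene tested, placed by its log2 fold change (E14.5 over E11.5, mean of the sexes) in its list, blue where called lower, red where called higher and grey where not called, with the list's median as a black bar. The medians of the 37 genes and of the assembly, transcription, snoRNP and exosome lists lie between -0.40 and -0.30, the Myc network lies above 0, and Myc and Fbll1 stand apart at 1.23 and 2.55.

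The gene entry of the 45S precursor, Rn45s, was in the table, although libraries were made from poly(A) RNA. It had 6985, 7707 and 8299 CPM in E14.5 females and 1533, 1377 and 1366 in E14.5 males, against 6523, 6085 and 8058 in E11.5 females and 2914, 2207 and 3808 in E11.5 males. Females were above males at both ages, while the ages overlapped in females and E14.5 was lower in males. The log2 fold change of females over males was 2.43 at E14.5 (edgeR adjusted p = 2.07e-06) and 1.21 at E11.5 (edgeR adjusted p = 0.00768). The RNAs of RNase MRP and RNase P, Rmrp and Rpph1, which also lack a poly(A) tail, had age fold changes of -0.89 ± 0.33 and -1.50 ± 0.25 (log2 ± SE), both called lower by edgeR, with ages that overlapped. In females the values were 0.34 ± 0.31 and 0.28 ± 0.20 and neither was called, and in males they were -2.12 ± 0.57 and -3.29 ± 0.43, both called lower. Rmrp had 0.227, 0.0914 and 0.0487 CPM in E14.5 males and 0.821, 0.274 and 0.504 in E11.5 males. Rpph1 had 0.0568, 0.0914 and 0.146 CPM in E14.5 males and 1.04, 0.901 and 1.13 in E11.5 males. These levels are near the floor, so the falls in males rest on few reads. For Rn45s the age fold change was -0.45 ± 0.12, which was not called (0.15 ± 0.17 in females and -1.06 ± 0.17, called lower, in males). Their level is given as found in poly(A)-selected libraries, and no rate of ribosomal RNA synthesis was measured. Whether reads on Rn45s came from the precursor or from the ribosomal RNA cut from it was not tested.

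The change with age was also taken within each sex. In females 16 genes were called lower and 1 higher (19.6% and 25.0% of all genes tested), and in males 17 lower and 1 higher (20.4% and 24.7%). The difference was negative in both sexes for 32 of the 37 genes and positive in both for 2, Myc and Rrn3. The share of all genes with the same sign in both sexes was not taken. For Rrn3 no change was detectable in females (0.02 ± 0.05 SE, edgeR adjusted p = 0.750), and males were at 0.24 ± 0.05 SE (edgeR adjusted p = 3.56e-04). Over both sexes Rrn3 was at 0.08 to 0.17 in the settings tried, and its adjusted p was not under 0.05 in all of them. Called lower in both sexes were 10 genes: Fbl, Nop58, Dkc1, Gar1, Nhp2, Ncl, Npm1, Npm3, Rrs1 and Gnl3. The share of all genes called lower in both sexes was not taken. With the correction for GC content and length, Npm3 was called in neither sex (-0.37 in females and -0.45 in males). Nop58 was then not called in females (-0.47).

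The size of the change differed between the sexes, by a test of the difference itself, for 20 of the 37 genes. The change was more negative in females for 10 and more positive in females for 10, against 18.5% and 20.6% of all genes tested. Without E11.5 female replicate 3 the first count was 6. Tcof1 had a log2 fold change of -0.27 ± 0.07 SE in females and -1.03 ± 0.07 SE in males (difference 0.75 ± 0.10, edgeR adjusted p = 4.61e-05). Heatr1 was the reverse, with -0.72 ± 0.06 in females and -0.09 ± 0.06 in males (difference -0.63 ± 0.09, edgeR adjusted p = 9.20e-05). Nle1 had 0.09 ± 0.12 in females and -0.71 ± 0.12 in males (difference 0.79 ± 0.17, edgeR adjusted p = 0.00205). With the correction for GC content and transcript length, 6 were called, 3 in each direction (4.01% and 8.25% of all genes). They were Utp20, Heatr1 and Rrp12, more negative in females, and Nop10, Bysl and Mycn, more positive, and 4 of them were among the 20. With this correction and the replicate number as a block within each age, 17 were called, 11 of them among the 20. Of these 11, Nop58 was called in the opposite direction (0.19 in place of -0.30). The same fit called 9.71% and 17.9% of all genes more negative and more positive in females.

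Females and males were compared at each age. At E11.5 no gene of the 37 was called by edgeR in either direction (0.270% lower and 0.104% higher of all genes). At an unadjusted p under 0.05 there were 4, DESeq2 and limma called none either, and the largest absolute log2 fold change was 0.21. With the replicate number as a block, 12 were at an unadjusted p under 0.05 and 5 at the adjusted p: Dkc1, Npm1, Wdr12 and Gnl3, higher in females, and Mybbp1a, lower (log2 fold change 0.21, 0.18, 0.15, 0.14 and -0.12), all under the fold minimum. At that adjusted p the block gave 8.95% of all genes as higher and 9.47% as lower. At E14.5, 4 genes were called higher in females and 2 lower (5.98% and 5.62% of all genes). Higher were Nle1 (0.66 ± 0.12, adjusted p = 5.15e-04), Tcof1 (0.65 ± 0.07, adjusted p = 5.33e-06), Bysl (0.54 ± 0.06, adjusted p = 5.69e-06) and Mycn (0.54 ± 0.05, adjusted p = 1.37e-06), all log2 ± SE from edgeR. Lower were Heatr1 (-0.58 ± 0.06, adjusted p = 6.39e-06) and Utp20 (-0.54 ± 0.06, adjusted p = 7.67e-06), by the same test. Utp20 was no longer called without E14.5 female replicate 1 (-0.49), nor Bysl without E14.5 male replicate 3 (0.49). Markers moved with the same comparison. Of the 5 telencephalic markers 2 were called higher in females and none lower (summed level 865 to 923 CPM in E14.5 females and 632 to 652 CPM in E14.5 males). Of the 10 proliferation markers 1 was called higher and 2 lower (2142 to 2789 CPM in E14.5 females and 2653 to 3419.5 CPM in E14.5 males). In the other marker lists 2 of 10 neural stem cell and 1 of 6 intermediate progenitor markers were higher, 1 of 6 endothelial and 1 of 7 microglial markers were lower, and no neuronal, erythroid, mesenchyme or choroid plexus marker was called by edgeR in either direction. Their part in the sex differences of the 37 genes was not tested.

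These differences ran with the GC content of the transcripts. The 13 genes at or above 54% GC had a median log2 difference (female over male, E14.5) of 0.29, and 12 of them were positive. The 16 genes under 50% GC had a median of -0.21, and 14 of them were negative. Across the 37 genes the Spearman correlation of GC content with the sex difference at E14.5 was 0.82, and across 14401 tested genes it was 0.72, as a description over genes that share the same libraries. With the correction the correlation over the 37 genes was 0.19. No gene was then called by edgeR in either direction (0.830% higher and 1.70% lower of all genes). At an unadjusted p under 0.05 there were 14 of 37, and at the adjusted p alone 9. The 6 genes called without the correction kept their direction with it. Of these, Heatr1 had -0.40 ± 0.07 (edgeR adjusted p = 9.71e-04), Bysl 0.36 ± 0.06 (edgeR adjusted p = 7.71e-04) and Mycn 0.34 ± 0.04 (edgeR adjusted p = 8.44e-05), log2 ± SE. Other genes of the 37 turned, such as Ncl (-0.22 without and 0.22 with the correction) and Bop1 (0.27 and -0.06). Since each sex at E14.5 was its own sequencing series, a sex difference and a difference between the series cannot be told apart. For the age comparison with the correction, 16 genes were called lower and 1 higher (18.5% and 23.6% of all genes), and 14 of the 16 called without it were called with it.

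**Figure D5:**
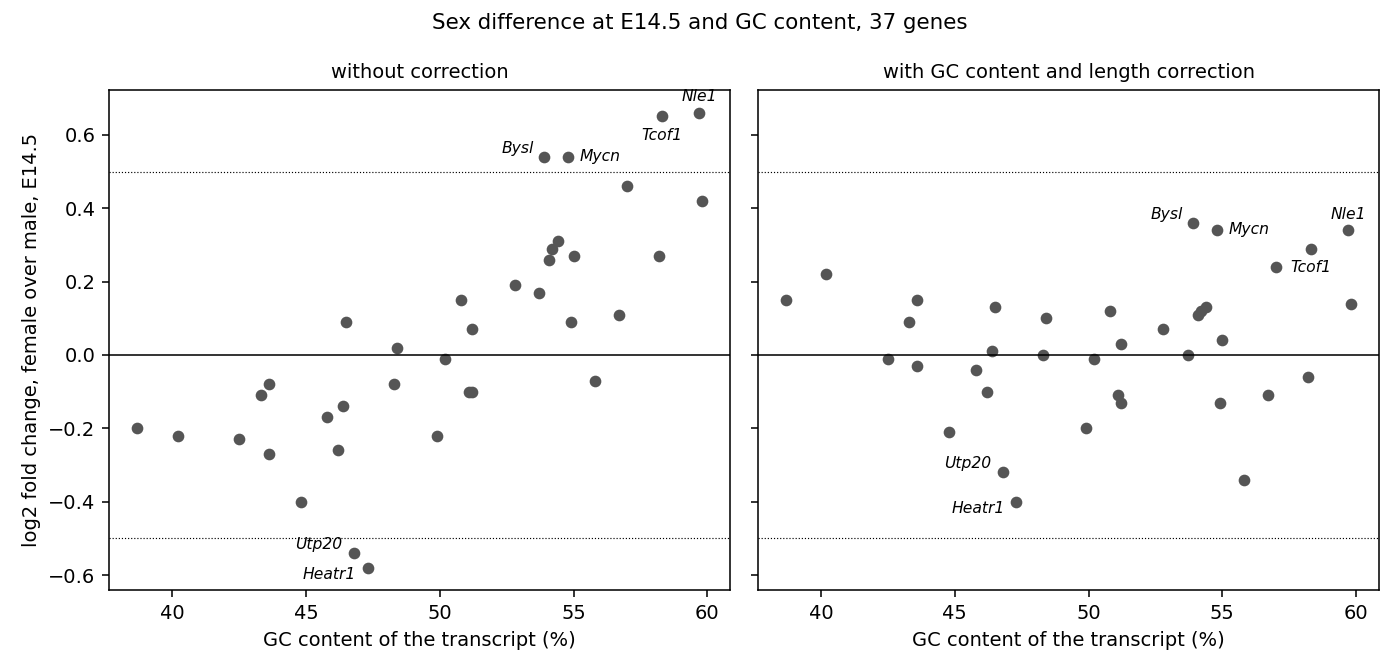
The log2 fold change of females over males at E14.5 is plotted against the GC content of the transcript for the 37 genes, without correction (left) and with the GC content and length correction (right), with dotted lines at the fold minimum of 0.5. Without correction the points climb with GC content and 6 genes lie past the lines, and with it the slope is mostly gone and none does.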

How the data were processed

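The samples are 12 bulk RNA-seq libraries of whole telencephalon, 3 per age and sex. Per the paper's methods and the submitters' processing notes, stranded poly(A) libraries were sequenced in paired reads, aligned with STAR 2.6.0c to GRCm38 (mm10) and counted per gene with Genedata Profiler Genome. The deposited table holds, for each of 26190 genes, an estimated count per library, not normalized by the authors (82.7% of the counts are whole), and the FPKM the authors computed from it, which equals the count over transcript length and a library total. It was checked that every value column belonged to a listed sample.

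Estimated counts were rounded and tested in edgeR 4.0.16 (R 4.3.3; TMM, robust quasi-likelihood, 1 fit of 4 groups, 8 residual degrees of freedom), for the 14454 genes whose mean count reached 16 in 1 group or more. P values were adjusted by Benjamini-Hochberg over all of them. A call needed an adjusted p under 0.05 with an absolute log2 fold change above 0.5, and the difference of the age change between sexes at the adjusted p alone. Contrasts are E14.5 over E11.5 (mean of the sexes, and in each sex) and female over male. No p was adjusted over the 37 genes alone, and no set test was run. GC content was known for 98.9% of the genes. The correction for it and for length gave loess fits (span 0.5) as offsets. It would also remove a true difference that follows GC content. DESeq2 1.42.0, limma 3.58.1 on log2(FPKM + 0.1) and log2(FPKM + 1), other scalings, filters and thresholds, and fits without single libraries were alternatives, and the fits were tested on simulated data.

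The 37 genes, the lists and the tests were chosen with earlier results of these data known. Each of the 37 is named. Values in every library are given for Myc and Mycn, the 2 genes of each role with the smallest adjusted p for age, and every gene not called for age or called against the median of its role. Genes called between the sexes both with and without the correction would have been added, and none was. Of each list of other genes the 3 with the smallest adjusted p are named, with any called against the list's median. Marker lists, and the ribosomal proteins taken by symbol, are an exception and are given by counts and summed levels, with markers called against the list's median. By the sample table, replicate numbers mark a shared mother at each age (the study's text counts the E11.5 litters differently). Deviations from the group means of females and males with the same number correlated at 0.0919 to 0.259 at E11.5 and at 0.258 to 0.636 at E14.5. At E14.5 replicates 1 and 2 are of the same mother, so the number does not part litters between them. Female and male pairs that cross these numbers correlated at 0.226 and 0.347. The ages share no mother, so their numbers pair nothing (-0.16 to 0.0516). Embryos are the replicates, and litter mates share a mother, so the p-values measure the spread between embryos of few litters.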

Additional observations from a re-analysis of the deposited data

Results flagged for a closer look

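The change with age (log2 fold change of E14.5 over E11.5) differed between the sexes, by the test of that difference in edgeR, for 20 of the 37 genes. The values in parentheses are the change in females minus the change in males on the log2 scale. More negative in females were Heatr1 (-0.63), Utp20 (-0.54), Wdr75 (-0.47), Wdr12 (-0.42), Npm1 (-0.41), Wdr43 (-0.35), Nop58 (-0.30), Ftsj3 (-0.28), Gnl3 (-0.26) and Rrn3 (-0.23). More positive in females were Nle1 (0.79), Tcof1 (0.75), Bysl (0.63), Mycn (0.54), Gar1 (0.52), Rrp9 (0.51), Rrs1 (0.35), Bop1 (0.33), Ubtf (0.31) and Mybbp1a (0.29).

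The GC content of the transcripts of these genes moved with the sign of the difference. It was 38.7% to 49.9% for the 10 more negative in females and 53.7% to 59.8% for the 10 more positive in females. With correction for GC content and transcript length, 4 of the 20 were still called: Utp20 (-0.31), Heatr1 (-0.45), Bysl (0.41) and Mycn (0.32). The sequencing series also separates the sexes at each age, and its part cannot be told apart from that of sex.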

How the results depend on the processing

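Across scalings, filters, tools, thresholds, blocks and left-out libraries tried, Myc was the only gene of the 37 called higher with age, with 1 exception. With no minimum fold change 2 were higher, Myc and Rrn3. The same 2 were higher in males, and Myc and Bop1 in females. With no minimum, 34 were lower (32 in males, 29 in females), and with a minimum of 1 on the log2 scale 2 (2 in males, 3 in females). Leaving out single libraries gave 13 to 16 lower and 1 higher (15 to 18 and 1 in males, 14 to 18 and 1 in females). The age calls of Mybbp1a and Wdr75 were lost with DESeq2 size factors, library totals alone, a count minimum of 50, and the DESeq2 Wald test. Each of these settings left 14 genes called in either direction in place of 16. Bop1, at -0.01, had 0.00 on the other side of 0 with DESeq2 size factors, library totals alone (a scaling chosen after seeing the data), a count minimum of 50, the DESeq2 Wald test, and without E11.5 male replicate 3 or E11.5 female replicate 2 or 3 (range without single libraries -0.02 to 0.00).

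The difference of the age change between the sexes was more negative in females for 5 genes with limma on log2(FPKM + 0.1), 6 with limma on log2(FPKM + 1), and 3 with the GC content and length correction, which left 3 more positive. The range without single libraries was 6 to 13 and 9 to 11. With that correction, with and without the replicate block, the difference turned to 0.19 for Nop58, -0.07 for Bop1, 0.05 for Gnl3 and -0.00 for Ubtf. Between the sexes at E14.5, 0 genes were lower and 0 higher with the correction, with the correction and the block, and at a minimum of 1. With limma on log2(FPKM + 1) 0 were lower, and with no minimum 11 were lower and 13 higher. Single libraries moved these counts to 1 to 2 lower and 3 to 6 higher. At E11.5 they stayed at 0. Among the other pathway genes, 13 were lower with the correction, with or without the block, 94 lower and 8 higher with no minimum, and 1 lower at a minimum of 1, with 20 to 25 lower and 1 higher without single libraries. CANNTG was in 21 promoters.

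With the replicate number as a block within each age and no correction, the age change differed between the sexes for 26 genes in place of 20. The share of all genes called in that fit was not taken, so this rise cannot be set against that of all genes. With the correction, the block raised the share of all genes from 4.01% to 9.71% (more negative in females) and from 8.25% to 17.9% (more positive). For the calls with age, with or without the correction, the block instead joined equal numbers of both ages, which share no mother. Without the correction that fit called 15 genes lower and 1 higher with age, but it holds no true pairing. No count of calls moved by over 1.5 times with the block and no correction. The median over all genes moved by less than 0.1 on the log2 scale under every scaling, the causes of the shifts named here were not tested, and with 3 embryos a group small differences cannot be seen.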
